A study of Homo sapiens with 18 samples.

Results

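The 34 genes described here encode proteins of the lysosome, of autophagy and the transcription factors that control both. They were chosen by gene name with earlier results of these data known, although the rule itself uses no measured value. All 34 were found among the 30727 gene identifiers of the deposited table and passed the expression filter that left 17641 genes for testing. Messenger RNA was sequenced from PC9, a line of human lung cancer that needs the receptor kinase EGFR to grow, in 18 libraries that form 6 groups of 3. In parental_DMSO the cells received the solvent DMSO for a time that the labels leave out. DTP stands for drug-tolerant persisters, the survivors of 8 days with erlotinib, an inhibitor of EGFR, at 1 µM, during which medium and drug were renewed. In erlotinib_24h the same dose was left on the cells for 24 hours with no renewal. Carboplatin_72h cells had carboplatin, which crosslinks DNA, at 50 µM for 72 hours, renewed daily with the medium. Trichostatin A (TSA), which inhibits histone deacetylases, was added at 50 nM for 5 hours to parental cells (parental_TSA) and to persisters (DTP_TSA). All groups are 1 cell line, all grew in the same medium with serum, and the study compared RNA levels between untreated, drug-treated and drug-tolerant populations. Renewal of the medium differed between the drug groups, so its part cannot be told apart from that of the drugs. In DTP, a change within cells cannot be told apart from a change in which cells remain, and in bulk RNA fewer cells with a transcript cannot be told apart from less of it per cell. Whether replicates came from separate cultures is not stated in the labels, and p-values therefore reflect the spread among these libraries alone.

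Lysosomes are acidic organelles whose hydrolases (proteases of the cathepsin family, glycosidases, lipases) break down what the cell takes up or delivers from within. Autophagy delivers cytoplasm: the kinase ULK1 starts it, lipid-binding and scaffold proteins shape a membrane, and small proteins of the ATG8 family (the LC3 and GABARAP proteins) coat that membrane and bind receptors such as SQSTM1 and OPTN that carry cargo. The transcription factors TFEB, TFE3 and MITF raise lysosome and autophagy genes when the nutrient-sensing kinase complex mTORC1, which holds them in the cytoplasm, is low, and they bind a DNA motif called the CLEAR element, whose core is TCACGTG. The FOXO factors, which growth factor signalling through AKT restrains, are also known to raise autophagy genes.

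Gene reads came to between 32139343 and 128293531 per library. The lowest number of reads for a member in any library was 36.0, for CTSS in parental_TSA a, and 47.4 for TFEB in parental_DMSO a. The library DTP_TSA a stood apart, with 99.9 reads of the added ERCC spike-in RNA per 100 gene reads against 0.321 to 0.786 in the other libraries, and correlated across genes at best at 0.982 (Pearson) with its 2 mates, which reached 0.999 with each other. Parental_TSA a was next, at 0.992. For TSA, the counts, the leading changes and the differences between cell states are therefore also given without replicate a of both TSA groups. The cells matched their label as epithelial, with all 9 epithelial markers detected and a summed level of 4451 to 9641 CPM. Macrophage markers, which share lysosomal genes, summed to 35.0 to 38.4 CPM in parental_DMSO and 73.6 to 77.5 in carboplatin_72h, of which CD68, itself a lysosomal protein, made 29.7 to 32.3 and 66.4 to 70.0. Of the defining markers of blood cells, TYROBP was at 0 CPM and PTPRC at most 0.0676 CPM in these 2 groups. Other macrophage markers had higher means in carboplatin_72h than in parental_DMSO. These were CSF1R (3.54 against 0.4665 CPM), FCER1G (0.9075 against 0.147), LYZ (0.610 against 0.161) and CD14 (0.504 against 0.0196). MARCO was lower (1.815 against 4.77), and the part of these markers in the results was not tested. Fibroblast and endothelial markers summed to 4.70 to 4.78 and 17.5 to 18.4 CPM in parental_DMSO to 24.3 to 28.3 and 35.25 to 36.05 in DTP, to 19.2 to 20.7 and 113 to 118 in erlotinib_24h and to 18.6 to 26.4 and 46.75 to 49.6 in carboplatin_72h, and their part in the results was not tested. COL1A1 carried the fibroblast sum (mean 4.66 CPM in parental_DMSO and 26.0 in DTP), and the other 7 of 8 were under 1 CPM in every library. Among endothelial markers, PECAM1 fell from a mean of 9.265 CPM in parental_DMSO to 2.82 in DTP and CDH5 rose from 8.74 to 31.2. In erlotinib_24h both were higher, at 69.7 and 43.3.

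Promoter sequences are shown for the 7 members whose promoter holds the TCACGTG core and for GABARAPL1 and WIPI1, among the members that rose most and without it. Of the 34 members, 27 had an entry in the RefSeq promoter table of build GRCh38.p14, which spans 250 bases before to 50 bases after each annotated start of transcription. The core TCACGTG, searched on both strands, lay in at least 1 promoter of 7 of these 27 genes (25.9%), of 22 of 114 other genes of the same pathways (19.3%) and of 1226 of 27305 genes in the table (4.49%). Every TCACGTG holds the shorter E-box CACGTG, which was found in the same 25.9% of members and in 8.77% of all genes. The M-box TCATGTG, a related motif of MITF, lay in 3.7% of members (CTSA) and 3.59% of all genes, and the FOXO motif GTAAACA in 3.7% of members (CTSL) and 4.19% of all genes. These are matches of letters and not shown sites of binding. The bases just before the start are printed 5′ to 3′ on the gene's own strand, with TCACGTG or its reverse complement in capitals, where overlapping matches run together. They lie at chr13:113297039-113297238 (plus strand) for LAMP1, chr19:7522524-7522623 (plus strand) for MCOLN1, chr20:45891235-45891334 (plus strand) for CTSA, chr11:1763928-1764027 (minus strand) for CTSD, chr6:31862822-31862971 (minus strand) for NEU1, chr17:80101481-80101580 (plus strand) for GAA, chr16:67481158-67481257 (minus strand) for ATP6V0D1, chr12:10212777-10212876 (plus strand) for GABARAPL1 and chr17:68457497-68457596 (minus strand) for WIPI1.
LAMP1: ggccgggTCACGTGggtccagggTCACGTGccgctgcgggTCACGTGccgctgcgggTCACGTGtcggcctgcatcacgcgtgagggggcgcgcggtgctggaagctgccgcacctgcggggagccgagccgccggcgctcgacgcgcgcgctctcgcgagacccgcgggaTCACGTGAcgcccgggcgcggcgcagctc
MCOLN1: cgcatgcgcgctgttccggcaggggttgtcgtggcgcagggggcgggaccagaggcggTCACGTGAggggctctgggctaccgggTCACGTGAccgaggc
CTSA: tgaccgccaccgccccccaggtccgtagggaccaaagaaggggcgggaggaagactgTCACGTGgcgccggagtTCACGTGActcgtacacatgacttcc
CTSD: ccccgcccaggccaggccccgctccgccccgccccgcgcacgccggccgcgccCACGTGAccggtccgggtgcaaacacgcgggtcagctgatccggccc
NEU1: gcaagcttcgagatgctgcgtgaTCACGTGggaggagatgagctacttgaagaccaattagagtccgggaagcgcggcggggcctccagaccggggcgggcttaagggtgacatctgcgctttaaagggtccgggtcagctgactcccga
GAA: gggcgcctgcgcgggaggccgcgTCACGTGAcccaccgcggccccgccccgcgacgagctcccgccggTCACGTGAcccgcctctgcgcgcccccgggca
ATP6V0D1: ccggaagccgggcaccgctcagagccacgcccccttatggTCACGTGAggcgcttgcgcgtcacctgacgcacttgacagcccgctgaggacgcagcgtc
GABARAPL1: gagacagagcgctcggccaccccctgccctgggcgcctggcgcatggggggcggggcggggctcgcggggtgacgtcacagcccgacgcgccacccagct
WIPI1: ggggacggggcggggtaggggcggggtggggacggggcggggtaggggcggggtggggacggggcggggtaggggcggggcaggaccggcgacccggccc

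By role, the core lay in LAMP1 and MCOLN1 among the membrane proteins, CTSA and CTSD among the cathepsins, NEU1 and GAA among the glycosidases, and ATP6V0D1 of the proton pump. It was in none of the 3 transcription factor genes, the 5 genes of ATG8 proteins and cargo receptors or the 5 genes of autophagosome initiation that had an entry. LAMP1 has 5 separate runs in the 200 bases before its start, and GAA, MCOLN1 and CTSA have 2 each in their last 100 bases.

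Most members were higher than in parental cells under each of the 3 drug conditions. With a quasi-likelihood test of edgeR across all genes and an adjusted p under 0.05, 25 of 34 members were higher and 4 lower in DTP, against a background of 58.9% of all genes called (31.0% higher and 27.8% lower). In erlotinib_24h 26 were higher and 5 lower, against 69.3% of all genes (36.6% higher and 32.7% lower). In carboplatin_72h 21 were higher and 6 lower, against 58.9% of all genes (30.3% higher and 28.6% lower). The share of members called in either direction, 85.3%, 91.2% and 79.4%, was thus above the background, and within the calls the higher direction held more members than among all genes. The members' median log2 fold change was 0.52 in DTP, 0.55 in erlotinib_24h and 0.30 in carboplatin_72h, where the median of all genes was 0.06, 0.11 and 0.06. The members did not stand out in the size of change: the median absolute log2 change was 0.57, 0.705 and 0.45 for members and 0.57, 0.83 and 0.56 for all genes. These comparisons share the parental_DMSO libraries, so their results are set side by side and not counted as support for each other. The 3 libraries of a drug group did not overlap those of parental_DMSO for 34 members in DTP (78.0% of all genes), 32 in erlotinib_24h (83.3%) and 28 in carboplatin_72h (75.5%). Of the 6 groups, parental_DMSO had the lowest mean for 16 of the 34 members, and the share of all genes lowest there was not counted.

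**Figure D1:**
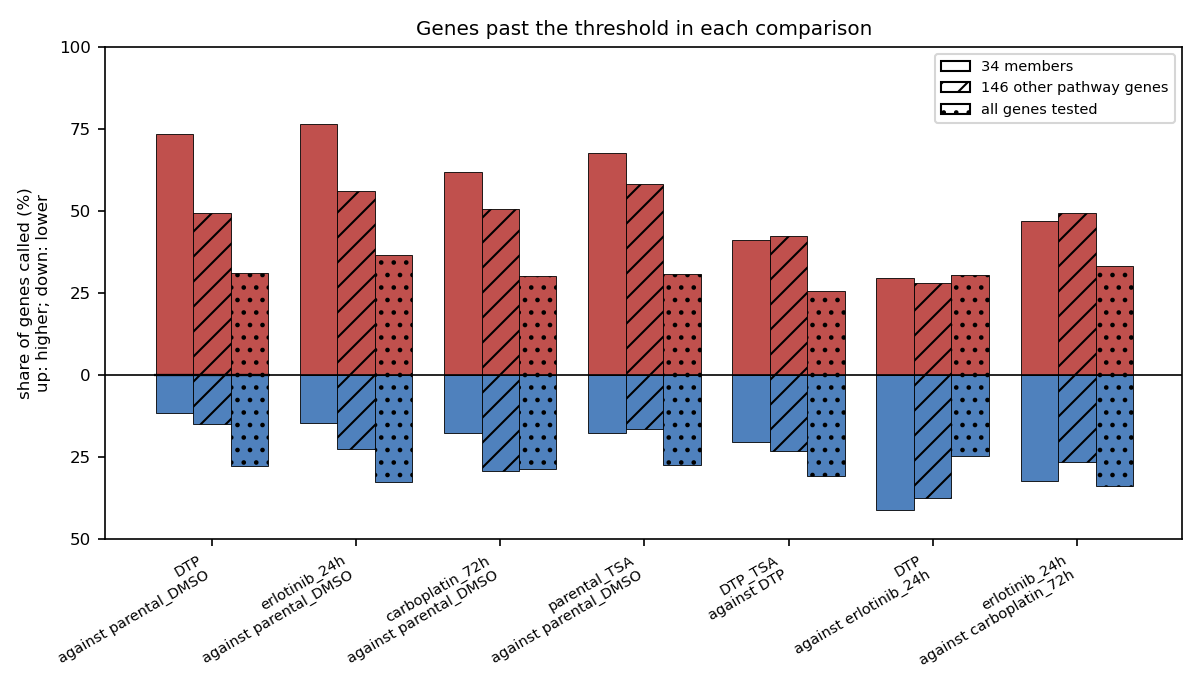
Share of genes with an adjusted p under 0.05 in each comparison (bars up, higher in the first-named group; bars down, lower), for the 34 members (plain), 146 other pathway genes (hatched) and all 17641 genes tested (dotted). In the comparisons of DTP, erlotinib_24h, carboplatin_72h and parental_TSA with parental_DMSO the members' bars up are above those of all genes and the bars down are shorter.

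All levels given per library are relative to gene reads, in CPM, the reads of a gene as parts of the scaled library total, for replicates a, b and c in that order. When libraries were scaled to the spike-in RNA, which was added by cell number (without DTP_TSA a), the median change of all genes moved to 0.16 in DTP, -0.23 in erlotinib_24h and 0.72 in carboplatin_72h. Under that scaling 24 members were higher and 3 lower in DTP, against 31.1% of all genes higher and 17.8% lower. In erlotinib_24h 16 were higher and 8 lower, against 25.8% and 39.8% of all genes, and in carboplatin_72h 28 were higher and 0 lower, against 58.7% and 6.7%. The calls of TFE3 and NPC1 in DTP and of UVRAG in carboplatin_72h were lost there. All changes below are log2 fold changes ± standard error scaled to gene reads, with 3 libraries per group, and are to be read against those shifts. The standard error was derived from the test statistic of the fit to all 18 libraries. Without replicate a of both TSA groups, which entered the same fit, 26 members were higher and 8 lower in DTP, 26 and 6 in erlotinib_24h and 22 and 8 in carboplatin_72h.

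**Figure D2:**
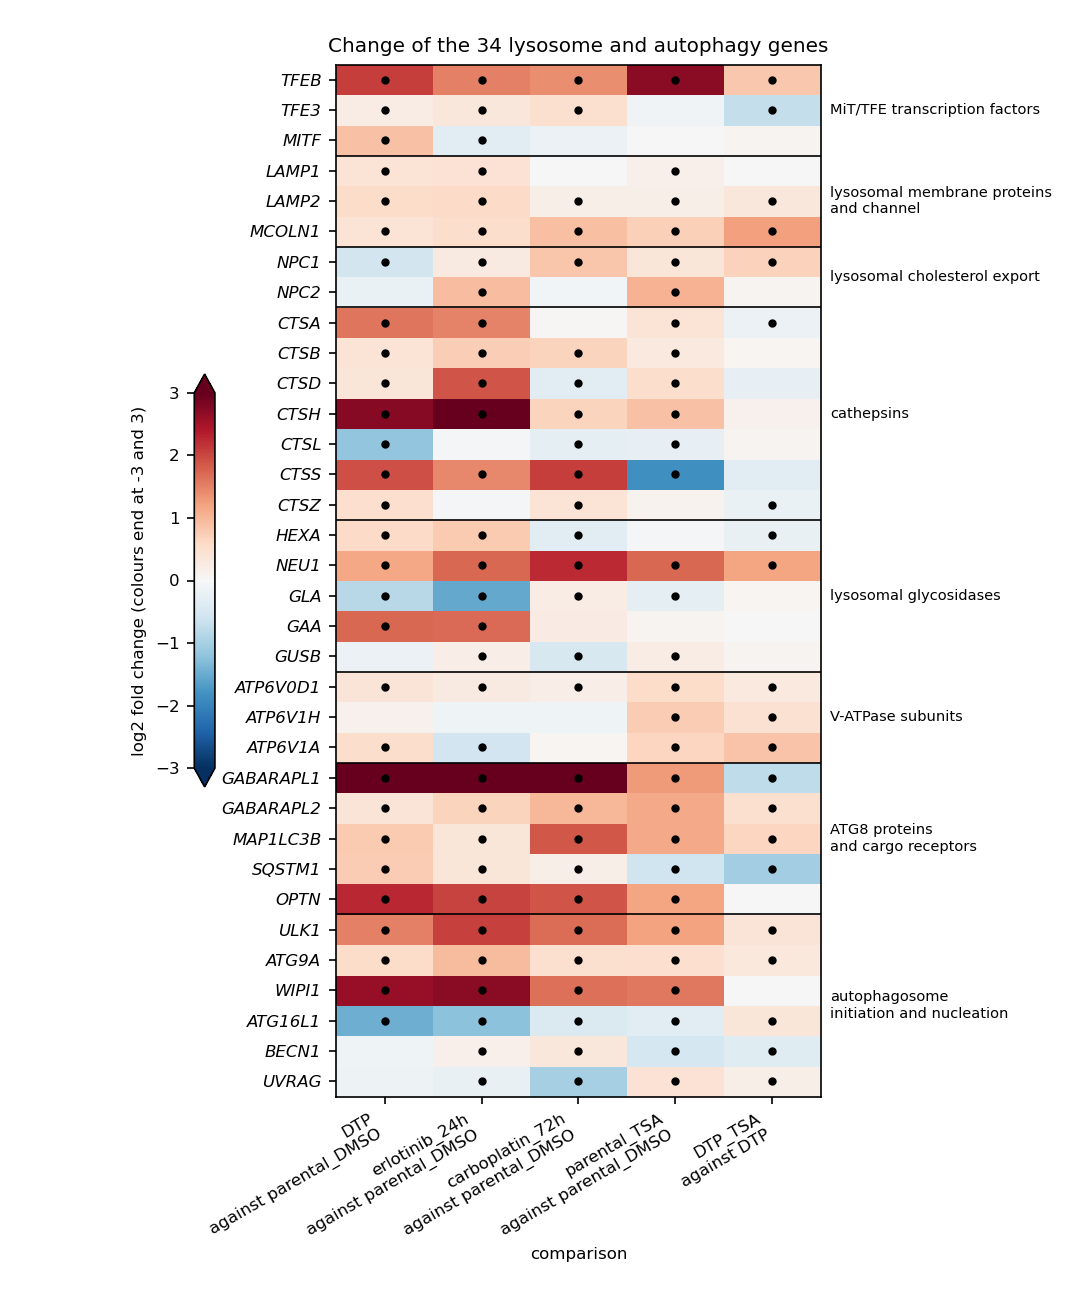
Log2 fold change (colour, ends at -3 and 3) of the 34 members (rows, by role) in 5 comparisons (columns), with a dot where the adjusted p was under 0.05. GABARAPL1, OPTN, ULK1, WIPI1, NEU1 and TFEB are red with a dot in the 3 drug columns, and ATG16L1 is blue with a dot in all 3.

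The transcription factors themselves differed in how they moved. TFEB, the factor best known for inducing lysosome genes, was low in CPM in all libraries, with 0.647, 0.698 and 0.831 CPM (parental_DMSO), 3.22, 3.14 and 2.80 (DTP), 2.04, 2.32 and 1.86 (erlotinib_24h) and 1.73, 1.82 and 2.14 (carboplatin_72h). Every drug-treated library was above every parental one. TFEB was 4.22-fold higher in DTP, with log2 changes of 2.08 ± 0.16 (adjusted p = 5.72e-09), 1.52 ± 0.16 (adjusted p = 1.70e-07) after 24 hours of erlotinib and 1.39 ± 0.16 (adjusted p = 9.73e-07) after carboplatin. TFE3, its close relative, had 34.6, 33.5 and 33.7 CPM (parental_DMSO), 39.9, 41.04 and 38.4 (DTP), 42.7, 42.9 and 43.8 (erlotinib_24h) and 46.98, 46.3 and 49.7 (carboplatin_72h). Its groups were narrow and did not overlap with parental_DMSO, and its changes were small, at 0.23 ± 0.07 in DTP, 0.35 ± 0.07 in erlotinib_24h (where spike-in scaling turned it to -0.02) and 0.49 ± 0.07 in carboplatin_72h. MITF, the family member best known from pigment cells, had 13.3, 14.8 and 12.2 CPM (parental_DMSO), 25.6, 24.5 and 24.2 (DTP), 10.4, 10.9 and 10.7 (erlotinib_24h) and 11.1, 12.6 and 11.8 (carboplatin_72h). It was highest in DTP, and its carboplatin libraries overlapped the parental ones. MITF rose in DTP by 0.88 ± 0.09 (adjusted p = 4.49e-07), fell after 24 hours of erlotinib (-0.33 ± 0.09, adjusted p = 0.00526) and had -0.18 ± 0.09 in carboplatin_72h (adjusted p = 0.109), where spike-in scaling gave 0.47. The 5 markers of pigment cells summed to at most 1.02 CPM in parental_DMSO and 1.89 in DTP. In the other groups the sum reached 3.84 (erlotinib_24h), 2.37 (carboplatin_72h), 2.34 (parental_TSA) and 9.03 CPM (DTP_TSA). The part of these markers in the results was not tested. TFEC, the fourth relative, was at most 0.399 CPM in any library.

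The 3 membrane proteins of the lysosome rose in both erlotinib groups, though with spike-in scaling none of the 3 passed in erlotinib_24h. LAMP1, an abundant glycoprotein of the lysosomal membrane, rose by 0.40 ± 0.04 in DTP and 0.43 ± 0.04 in erlotinib_24h and had -0.02 ± 0.04 (adjusted p = 0.752) in carboplatin_72h, where spike-in scaling gave 0.63. Its relative LAMP2, which also serves fusion with autophagosomes, rose by 0.55 ± 0.05, 0.57 ± 0.05 and 0.18 ± 0.05, the last of which did not pass when parental_DMSO a or carboplatin_72h b was left out (adjusted p from 0.0526 to 0.059). MCOLN1, the calcium channel of the lysosome, had 11.7, 10.5 and 11.8 CPM (parental_DMSO), 14.9, 15.6 and 14.7 (DTP), 15.9, 16.2 and 17.1 (erlotinib_24h) and 20.4, 19.4 and 23.9 (carboplatin_72h). It rose in all 3 groups without overlap, by 0.41 ± 0.09, 0.53 ± 0.09 and 0.90 ± 0.09 (adjusted p = 1.06e-07).

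The 2 proteins that export cholesterol from the lysosome did not move together. NPC1, the membrane-bound protein of this pair, had 63.5, 64.6 and 63.1 CPM (parental_DMSO), 43.3, 44.4 and 43.4 (DTP), 76.7, 78.6 and 76.2 (erlotinib_24h) and 115, 113 and 112 (carboplatin_72h). DTP was below and the other drug groups were above parental cells, with -0.55 ± 0.08 (adjusted p = 1.38e-05), 0.28 ± 0.08 (turned to -0.09 by spike-in scaling) and 0.83 ± 0.08 (adjusted p = 1.17e-07). NPC2, the soluble partner, had 204, 200.5 and 199.8 CPM (parental_DMSO), 178, 170.1 and 174 (DTP), 390, 380.5 and 373 (erlotinib_24h) and 187, 194 and 191 (carboplatin_72h). Erlotinib_24h was above parental cells, by 0.92 ± 0.12 (adjusted p = 4.30e-06), while DTP had -0.21 ± 0.12 (adjusted p = 0.158) and carboplatin_72h -0.08 ± 0.12 (adjusted p = 0.606, and 0.57 with spike-in scaling). The DTP value passed as lower, at -0.21, without replicate a of both TSA groups.

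Cathepsins are the proteases of the lysosome, and of the 7 members 6 rose and 1 fell in DTP. CTSH, an aminopeptidase, had 15.95, 14.8 and 14.9 CPM (parental_DMSO), 99.9, 102 and 102 (DTP), 219, 214 and 219 (erlotinib_24h) and 24.4, 22.7 and 25.3 (carboplatin_72h). It was 14.3-fold higher in erlotinib_24h and 6.66-fold higher in DTP, with 3.84 ± 0.10 (adjusted p = 3.28e-15) and 2.74 ± 0.10 (adjusted p = 3.12e-13), against 0.67 ± 0.09 in carboplatin_72h. CTSD, an aspartic protease, had 180.3, 164 and 194 CPM (parental_DMSO), 219, 238 and 233 (DTP), 633, 686 and 678 (erlotinib_24h) and 141, 121 and 172 (carboplatin_72h). The 24-hour libraries stood far above all others, at 1.89 ± 0.11 (adjusted p = 7.45e-11), where DTP had 0.36 ± 0.11 (adjusted p = 0.00759). In carboplatin_72h CTSD overlapped parental cells and was called lower at -0.31 ± 0.11 (adjusted p = 0.0183), a call lost without parental_DMSO c, carboplatin_72h a or carboplatin_72h b (-0.29 to -0.23) and turned to 0.32 by spike-in scaling. CTSA, a carboxypeptidase that protects NEU1, had 102, 98.4 and 106 CPM (parental_DMSO), 311, 312 and 316 (DTP), 289, 286 and 281 (erlotinib_24h) and 107, 103 and 107 (carboplatin_72h). DTP and erlotinib_24h were both far above the rest, with 1.62 ± 0.07 (adjusted p = 2.62e-12) in DTP and 1.48 ± 0.07 (adjusted p = 3.17e-12) in erlotinib_24h, and carboplatin_72h overlapped parental cells (0.05 ± 0.07, adjusted p = 0.567).

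CTSS, a protease best known from antigen-presenting cells, had 2.03, 2.00 and 1.82 CPM (parental_DMSO), 7.00, 6.94 and 8.31 (DTP), 5.11, 6.03 and 4.76 (erlotinib_24h) and 7.95, 8.52 and 8.21 (carboplatin_72h). All drug groups were above parental cells, by 1.93 ± 0.16 (adjusted p = 1.66e-08), 1.44 ± 0.16 and 2.08 ± 0.16 (adjusted p = 7.84e-09). CTSL, a cysteine protease, had 169, 165 and 152 CPM (parental_DMSO), 73.6, 70.6 and 70.5 (DTP), 158, 154 and 152 (erlotinib_24h) and 131, 134 and 129.8 (carboplatin_72h). It fell in DTP, with -1.18 ± 0.06 (adjusted p = 8.46e-11), overlapped parental cells after 24 hours of erlotinib (-0.07 ± 0.06, adjusted p = 0.341) and was lower after carboplatin (-0.30 ± 0.06), where spike-in scaling turned it to 0.35. Its near relative CTSV, which is similar in sequence, ran from 22.9 to 145 CPM over the libraries, so some reads could be shared. CTSZ, a carboxypeptidase, had 184, 185 and 170.3 CPM (parental_DMSO), 252, 256 and 254 (DTP), 172, 175 and 169.6 (erlotinib_24h) and 239.8, 235 and 243 (carboplatin_72h). It was higher in DTP (0.50 ± 0.07) and carboplatin_72h (0.41 ± 0.07), and erlotinib_24h overlapped parental cells at -0.06 ± 0.07 (adjusted p = 0.467). CTSB, an abundant cysteine protease, rose by 0.42 ± 0.05, 0.74 ± 0.05 and 0.68 ± 0.05 in the 3 groups.

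The glycosidases, which remove sugars from lipids and proteins, went in different directions. NEU1, the sialidase, had 24.1, 22.2 and 21.98 CPM (parental_DMSO), 51.2, 50.5 and 50.1 (DTP), 76.3, 77.3 and 73.3 (erlotinib_24h) and 108, 105 and 110 (carboplatin_72h). Carboplatin_72h was highest, then erlotinib_24h, then DTP, without overlap, with 1.15 ± 0.07 (adjusted p = 3.49e-10), 1.73 ± 0.07 (adjusted p = 8.45e-13) and 2.24 ± 0.07 (adjusted p = 2.15e-13) against parental cells. GLA, the galactosidase missing in Fabry disease, had 84.8, 85.8 and 78.5 CPM (parental_DMSO), 48.2, 46.1 and 46.5 (DTP), 29.4, 28.7 and 28.3 (erlotinib_24h) and 96.1, 98.4 and 95.7 (carboplatin_72h). It was lowest after 24 hours of erlotinib (-1.53 ± 0.07, adjusted p = 5.34e-12), also lower in DTP (-0.82 ± 0.07, adjusted p = 2.84e-08) and slightly higher after carboplatin (0.22 ± 0.07), a call lost without parental_DMSO c or carboplatin_72h b (adjusted p from 0.0688 to 0.0729). GAA, which degrades glycogen, had 14.97, 14.6 and 15.8 CPM (parental_DMSO), 49.2, 50.9 and 50.2 (DTP), 46.1, 51.7 and 50.2 (erlotinib_24h) and 17.9, 14.4 and 21.9 (carboplatin_72h). It rose in both erlotinib groups, by 1.73 ± 0.16 (adjusted p = 7.45e-08) and 1.71 ± 0.16 (adjusted p = 4.85e-08), and carboplatin_72h overlapped parental cells (0.26 ± 0.16, adjusted p = 0.177).

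HEXA, which degrades gangliosides, had 73.2, 71.99 and 69.2 CPM (parental_DMSO), 106, 106 and 107 (DTP), 123, 126 and 122 (erlotinib_24h) and 55.05, 54.9 and 58.7 (carboplatin_72h). It rose by 0.58 ± 0.05 (adjusted p = 8.62e-09) in DTP and 0.79 ± 0.05 (adjusted p = 7.42e-11) in erlotinib_24h and was lower in carboplatin_72h at -0.35 ± 0.05 (adjusted p = 5.10e-06), turned to 0.30 by spike-in scaling. GUSB, a glucuronidase, had 25.01, 25.5 and 26.7 CPM (parental_DMSO), 23.7, 22.4 and 22.3 (DTP), 29.7, 29.6 and 28.7 (erlotinib_24h) and 19.03, 16.8 and 19.5 (carboplatin_72h). Its value after 24 hours of erlotinib, 0.19 ± 0.08 (adjusted p = 0.0479), was near the threshold, was lost without any 1 of 14 libraries (0.16 to 0.21) and with the replicate block, and turned to -0.17 with spike-in scaling. In DTP it had -0.17 ± 0.08 (adjusted p = 0.0766), and after carboplatin it was lower at -0.48 ± 0.08 (adjusted p = 8.38e-05), turned to 0.16 by spike-in scaling. The pseudogenes GUSBP1, GUSBP4 and GUSBP11 reached 10.6, 8.59 and 7.67 CPM, so reads of GUSB may be split with them and its values are uncertain.

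The V-ATPase pumps protons into the lysosome, and its 3 member subunits moved little or in different directions. ATP6V1A, the catalytic subunit of the cytoplasmic V1 part, had 80.2, 83.4 and 78.99 CPM (parental_DMSO), 117, 116 and 118 (DTP), 53.4, 53.02 and 56.1 (erlotinib_24h) and 83.8, 86.4 and 81.7 (carboplatin_72h). DTP was above and erlotinib_24h below parental cells, at 0.53 ± 0.06 (adjusted p = 8.44e-07) and -0.58 ± 0.06 (adjusted p = 2.02e-07), and carboplatin_72h overlapped them (0.05 ± 0.06, adjusted p = 0.457). ATP6V0D1, of the membrane-bound V0 part, had 0.38 ± 0.07, 0.27 ± 0.07 (turned to -0.09 by spike-in scaling) and 0.20 ± 0.07, all called higher. The carboplatin call of ATP6V0D1 was lost without any 1 of 7 libraries, parental_DMSO a and b, the 3 of erlotinib_24h and carboplatin_72h a and c (0.17 to 0.20, adjusted p from 0.0546 to 0.0925). ATP6V1H, a regulatory V1 subunit, passed in none of the 3, with 0.13 ± 0.08, -0.14 ± 0.08 and -0.12 ± 0.08 (adjusted p = 0.199, 0.148 and 0.235), and spike-in scaling gave 0.53 for carboplatin. Without DTP_TSA a all 3 values passed, at 0.13, -0.14 and -0.12.

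All 5 genes of ATG8 proteins and cargo receptors rose in all 3 drug groups, except that with spike-in scaling MAP1LC3B and SQSTM1 did not pass in erlotinib_24h. GABARAPL1, an ATG8 protein, had 25.3, 24.9 and 22.2 CPM (parental_DMSO), 212, 200.1 and 204 (DTP), 214, 210.1 and 208 (erlotinib_24h) and 196, 197 and 191 (carboplatin_72h). The drug groups were nearly level with each other and all far above parental cells, by 8.50-fold, 8.74-fold and 8.07-fold. The log2 changes were 3.09 ± 0.06 (adjusted p = 3.09e-16), 3.13 ± 0.06 (adjusted p = 1.38e-16) and 3.01 ± 0.06 (adjusted p = 4.97e-15). The near-identical copy GABARAPL3 was at most 0.0946 CPM. OPTN, a receptor for damaged mitochondria and bacteria, had 13.6, 12.99 and 13.4 CPM (parental_DMSO), 62.5, 64.2 and 64.2 (DTP), 54.2, 53.9 and 55.96 (erlotinib_24h) and 49.5, 50.1 and 47.01 (carboplatin_72h). All drug groups were far above parental cells, at 2.26 ± 0.06 (adjusted p = 1.58e-14), 2.04 ± 0.06 (adjusted p = 1.92e-14) and 1.88 ± 0.06 (adjusted p = 2.81e-13).

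MAP1LC3B, which encodes LC3B, the usual marker protein of autophagosomes, had 58.4, 57.9 and 58.8 CPM (parental_DMSO), 99.5, 99.6 and 100.3 (DTP), 78.2, 73.6 and 72.8 (erlotinib_24h) and 212, 216 and 209 (carboplatin_72h). Carboplatin libraries were highest, at 1.86 ± 0.08 (adjusted p = 7.29e-12), then DTP at 0.77 ± 0.08 (adjusted p = 2.55e-07), and erlotinib_24h at 0.36 ± 0.08 (turned to -0.0015 by spike-in scaling). Its copy MAP1LC3B2 was at most 0.28 CPM. SQSTM1, which encodes the receptor p62, had 448, 439 and 459 CPM (parental_DMSO), 758, 778 and 764 (DTP), 578, 585 and 574 (erlotinib_24h) and 499, 480.1 and 543 (carboplatin_72h). DTP was highest, at 0.77 ± 0.07 (adjusted p = 8.34e-08), with 0.37 ± 0.07 in erlotinib_24h. In carboplatin_72h it had 0.18 ± 0.07 (adjusted p = 0.0436), a call that was lost when any 1 of 15 libraries was left out (0.12 to 0.19, adjusted p from 0.0516 to 0.197). GABARAPL2, another ATG8 protein, rose by 0.38 ± 0.11, 0.67 ± 0.11 and 0.99 ± 0.12.

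Genes that start and shape the autophagosome held WIPI1, among the members that rose most, and ATG16L1, which was lower in every drug group. WIPI1, which binds the lipid PI3P at the forming membrane, had 5.79, 6.45 and 6.50 CPM (parental_DMSO), 39.9, 37.5 and 38.2 (DTP), 41.2, 40.95 and 39.9 (erlotinib_24h) and 19.7, 19.2 and 19.8 (carboplatin_72h). It was 6.17-fold and 6.52-fold higher in the erlotinib groups and 3.13-fold higher after carboplatin, with 2.62 ± 0.07 (adjusted p = 4.34e-15), 2.70 ± 0.07 (adjusted p = 1.41e-15) and 1.65 ± 0.06 (adjusted p = 1.98e-12). ULK1, the kinase that starts autophagy, had 23.6, 22.8 and 26.5 CPM (parental_DMSO), 65.6, 72.7 and 69.2 (DTP), 92.8, 105 and 105 (erlotinib_24h) and 76.5, 61.7 and 94.6 (carboplatin_72h). All drug libraries were above all parental ones, with 1.51 ± 0.14 (adjusted p = 5.90e-08), 2.06 ± 0.14 (adjusted p = 6.84e-10) and 1.68 ± 0.14 (adjusted p = 1.90e-08), and carboplatin_72h spread most among its own replicates, with a coefficient of variation of 21.2%. ATG9A, the lipid scramblase of the pathway, rose by 0.56 ± 0.06, 0.94 ± 0.06 and 0.48 ± 0.06.

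ATG16L1, which anchors the enzyme that attaches ATG8 proteins to lipid, had 139, 139 and 134 CPM (parental_DMSO), 51.9, 48.5 and 50.1 (DTP), 59.6, 57.8 and 58.3 (erlotinib_24h) and 104, 103 and 99.98 (carboplatin_72h). It was lower without overlap in all 3, with -1.45 ± 0.07 (adjusted p = 7.44e-12), -1.23 ± 0.07 (adjusted p = 2.53e-11) and -0.43 ± 0.06 (adjusted p = 2.24e-05), of which spike-in scaling turned the carboplatin value to 0.22. BECN1, of the lipid kinase complex that makes PI3P, had 64.01, 63.8 and 62.4 CPM (parental_DMSO), 57.9, 56.97 and 59.9 (DTP), 71.01, 69.4 and 70.1 (erlotinib_24h) and 79.9, 82.4 and 79.8 (carboplatin_72h). Its changes were small, -0.12 ± 0.05 in DTP (adjusted p = 0.0585), 0.15 ± 0.05 (adjusted p = 0.0223) in erlotinib_24h and 0.35 ± 0.05 in carboplatin_72h. The erlotinib_24h call of BECN1 was lost without any 1 of the 3 parental_DMSO libraries or erlotinib_24h a or c (adjusted p from 0.0529 to 0.0817) and turned to -0.22 with spike-in scaling. UVRAG, its partner, had 40.8, 41.5 and 39.96 CPM (parental_DMSO), 39.04, 35.3 and 35.98 (DTP), 35.95, 34.9 and 34.4 (erlotinib_24h) and 20.5, 20.3 and 20.7 (carboplatin_72h). It fell after carboplatin without overlap, to -0.99 ± 0.07 (adjusted p = 5.75e-09), with -0.22 ± 0.07 in erlotinib_24h and -0.15 ± 0.07 (adjusted p = 0.0932) in DTP. The DTP values of BECN1, UVRAG, GUSB and NPC2 passed as lower without parental_TSA a.

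**Figure D3:**
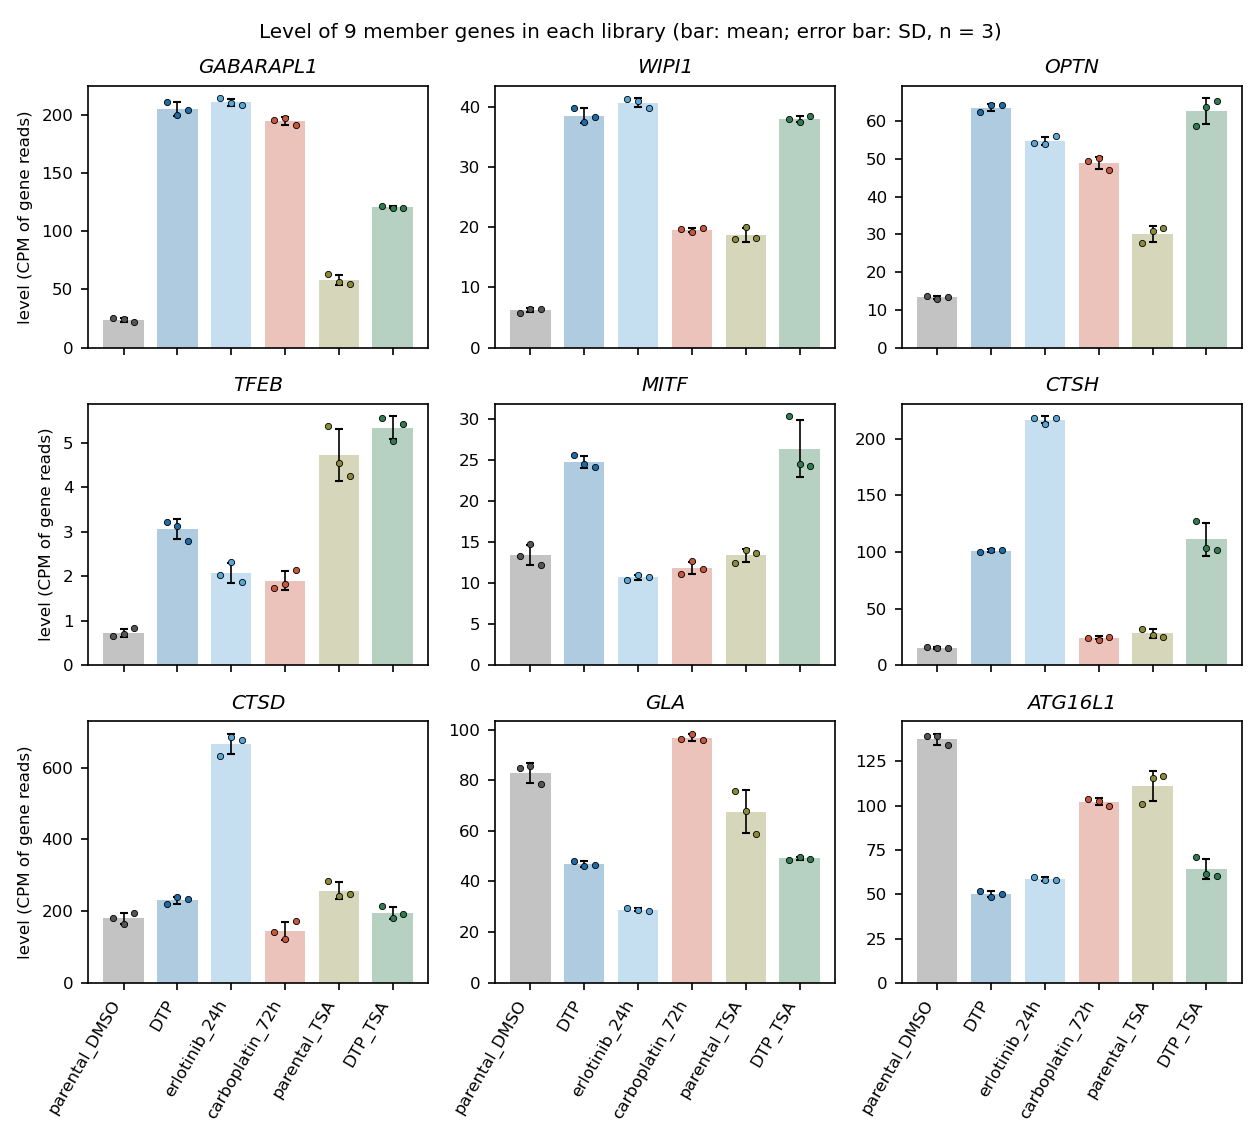
Level in CPM of gene reads (vertical axes from 0) of 9 members in each library (points), with the group mean (bar) and SD (error bar, n = 3). GABARAPL1 and OPTN are higher in every library of the 3 drug groups than in parental_DMSO, MITF is raised in DTP and DTP_TSA, CTSH and CTSD peak in erlotinib_24h, and GLA and ATG16L1 are lower in DTP and erlotinib_24h than in parental_DMSO.

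Across the 3 drug groups, 17 members were called higher in each (TFEB, TFE3, LAMP2, MCOLN1, CTSB, CTSH, CTSS, NEU1, ATP6V0D1, GABARAPL1, GABARAPL2, MAP1LC3B, SQSTM1, OPTN, ULK1, ATG9A and WIPI1), and ATG16L1 was called lower in each. CTSD, HEXA and GUSB were higher in erlotinib_24h and lower in carboplatin_72h. Of the 7 members with TCACGTG before their start, 7 were called higher in DTP and 7 in erlotinib_24h. Of the 20 with a promoter entry and no such match, 13 and 15 were, against 31.0% and 36.6% of all genes. With spike-in scaling LAMP1 and MCOLN1 did not pass in erlotinib_24h, and ATP6V0D1 changed sign there. In carboplatin_72h 3 of the 7 were higher (MCOLN1, NEU1 and ATP6V0D1), 1 was lower (CTSD) and 3 did not pass. Of the 20 others 15 were higher there, against 30.3% of all genes. The counts in this paragraph describe few genes and were not tested. The 3 comparisons share the parental_DMSO libraries, and the share of all genes with each pattern of calls was not counted, so no excess is read from them.

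DTP and 24 hours of erlotinib were compared directly, because both received the same drug for different times. Of the 34 members 10 were higher and 14 lower in DTP, against 55.3% of all genes called (30.5% higher and 24.8% lower), with 29 members not overlapping (78.1% of all genes), and the median difference was -0.06, where that of all genes was 0.03. MITF stood out as higher in DTP, by 1.21 ± 0.10 (adjusted p = 1.03e-08), with ATP6V1A (1.11 ± 0.06, adjusted p = 1.06e-10), GLA (0.70 ± 0.07), CTSZ (0.56 ± 0.07) and TFEB (0.56 ± 0.15). CTSD was lower in DTP, with -1.53 ± 0.11 (adjusted p = 2.36e-09), as were NPC2 (-1.13 ± 0.12), CTSL (-1.11 ± 0.06), CTSH (-1.10 ± 0.09) and NPC1 (-0.82 ± 0.08). The levels of these genes in each library, given above, did not overlap between the 2 groups. MAP1LC3B (0.41 ± 0.08), SQSTM1 (0.41 ± 0.07), OPTN (0.22 ± 0.06), CTSS (0.48 ± 0.15, lost without DTP c or erlotinib_24h c at 0.40 to 0.42) and ATP6V1H (0.27 ± 0.08) were the other members higher in DTP.

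Members lower in DTP by less than 0.6 were CTSB (-0.33 ± 0.05), HEXA (-0.21 ± 0.04), NEU1 (-0.58 ± 0.07), GUSB (-0.36 ± 0.08), GABARAPL2 (-0.28 ± 0.11), ULK1 (-0.54 ± 0.13), ATG9A (-0.38 ± 0.06), ATG16L1 (-0.22 ± 0.06) and BECN1 (-0.27 ± 0.05). The call of GABARAPL2 was lost with the replicate block (adjusted p = 0.0557) and without any 1 of 15 libraries (adjusted p from 0.0527 to 0.125). With spike-in scaling, which moved the median of all genes to 0.48, 17 members were higher and 4 lower in DTP, against 47% and 11.2% of all genes, and CTSB, HEXA, GUSB, GABARAPL2, ATG9A, ATG16L1 and BECN1 turned to values above 0. The members that did not pass were TFE3, LAMP1, LAMP2, MCOLN1, CTSA, GAA, ATP6V0D1, GABARAPL1, WIPI1 and UVRAG, with differences between -0.12 and 0.13.

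Erlotinib for 24 hours was next set against carboplatin for 72 hours, which differ in drug and in time. Of the 12 cathepsins and glycosidases 7 were higher after erlotinib and 4 after carboplatin. This count pools 2 of the member lists and was not tested. With spike-in scaling only the 4 members named at the end of this paragraph were higher after erlotinib. Of the 34 members 16 were higher and 11 lower in erlotinib_24h, against 67.3% of all genes called (33.3% higher and the other calls lower). The groups did not overlap for 30 members (81.8% of all genes), and the median was 0.12 against -0.02. CTSH (3.17 ± 0.10, adjusted p = 3.00e-14), CTSD (2.20 ± 0.11, adjusted p = 1.43e-11), GAA (1.45 ± 0.16), CTSA (1.44 ± 0.07) and HEXA (1.13 ± 0.05) were the highest, followed by WIPI1 (1.06 ± 0.06) and NPC2 (1.00 ± 0.12). GLA (-1.75 ± 0.07, adjusted p = 1.32e-12), MAP1LC3B (-1.50 ± 0.08, adjusted p = 3.46e-11), ATG16L1 (-0.80 ± 0.06), CTSS (-0.63 ± 0.15) and ATP6V1A (-0.63 ± 0.06) were higher after carboplatin. Calls of OPTN (without carboplatin_72h c), of SQSTM1 and ULK1 (without carboplatin_72h a or b) and of GABARAPL2 (without any of the 3 erlotinib_24h libraries or carboplatin_72h b) were lost, with adjusted p from 0.0503 to 0.101. Spike-in scaling moved the median of all genes to -1.03 and gave 26 members lower and 4 higher in erlotinib_24h, against 65.8% and 12.2% of all genes. The 4 were CTSH (2.17), CTSD (1.21), CTSA (0.43) and GAA (0.46).

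**Figure D4:**
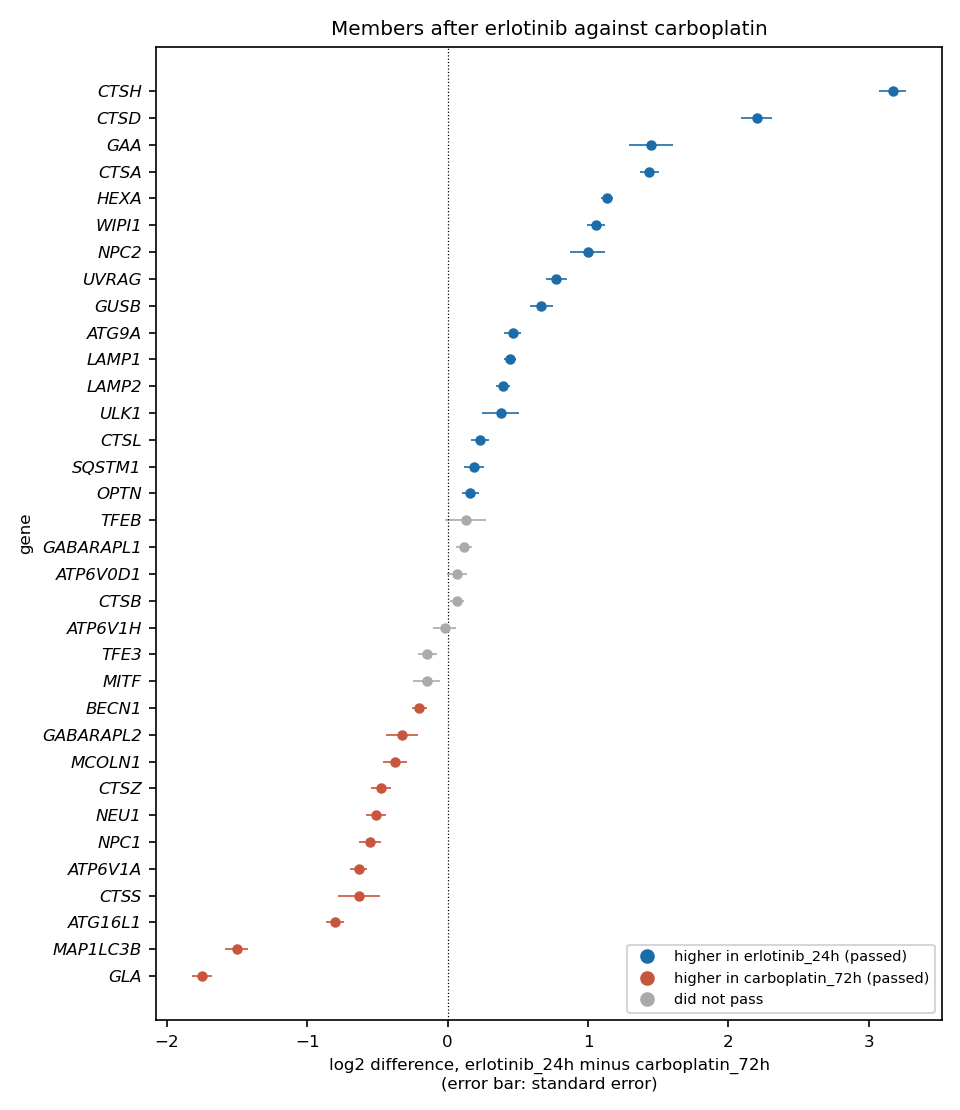
Log2 difference of each member between erlotinib_24h and carboplatin_72h (horizontal axis, point with standard error, scaled to gene reads), ordered by value. CTSH and CTSD lie farthest to the right, MAP1LC3B and GLA farthest to the left, and TFEB, GABARAPL1, ATP6V0D1, CTSB, ATP6V1H, TFE3 and MITF are grey because they did not pass.

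TSA, which blocks removal of acetyl groups from histones, raised most members in parental cells within 5 hours. In parental_TSA 23 of 34 members were higher and 6 lower, against 58.2% of all genes called (30.8% higher and 27.4% lower), with a median of 0.42 against 0.06 for all genes. The groups did not overlap for 29 members (63.9% of all genes). Without replicate a of both TSA groups the counts were 22 and 7, and with spike-in scaling 17 and 3, against 27.4% and 19.5% of all genes. TFEB had the largest rise of the 34, with levels of 5.37, 4.54 and 4.24 CPM in parental_TSA and 5.55, 5.05 and 5.42 CPM in DTP_TSA and a change of 2.70 ± 0.16 (adjusted p = 3.99e-10) in parental cells. TFE3 had 34.02, 30.8 and 30.3 CPM in parental_TSA and 26.98, 23.05 and 23.03 CPM in DTP_TSA and MITF 12.5, 14.02 and 13.7 CPM in parental_TSA and 30.4, 24.4 and 24.3 CPM in DTP_TSA, and neither passed in parental cells (-0.10 ± 0.07, adjusted p = 0.222, and -0.00 ± 0.09, adjusted p = 0.974). TFE3 passed as lower without parental_TSA a, at -0.16.

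NEU1 reached 83.6, 73.3 and 69.5 CPM in parental_TSA and 105, 120 and 120.1 CPM in DTP_TSA, above parental_DMSO and DTP. It rose by 1.73 ± 0.07 (adjusted p = 6.29e-12) in parental cells. WIPI1 had 17.97, 20.02 and 18.2 CPM in parental_TSA and 38.05, 37.5 and 38.5 CPM in DTP_TSA and rose by 1.58 ± 0.06 (adjusted p = 5.54e-12). GABARAPL1 had 63.4, 56.4 and 55.04 CPM in parental_TSA and 122, 120.2 and 120.4 CPM in DTP_TSA and rose by 1.27 ± 0.06 (adjusted p = 2.68e-11). In parental_TSA these 2 genes lay between parental cells and DTP. ULK1, with 59.5, 51.9 and 57.1 CPM in parental_TSA and 109.5, 78.2 and 85.98 CPM in DTP_TSA, rose by 1.21 ± 0.14, and OPTN (1.18 ± 0.06), GABARAPL2 (1.14 ± 0.12), MAP1LC3B (1.13 ± 0.08) and NPC2 (1.04 ± 0.12) rose by similar amounts. SQSTM1 went the other way, with 338, 282 and 266 CPM in parental_TSA and 388, 360.5 and 362 CPM in DTP_TSA and a change of -0.60 ± 0.07 (adjusted p = 1.91e-06) in parental cells. BECN1 (45.1, 45.4 and 41.5 CPM in parental_TSA and 47.8, 46.2 and 42.5 CPM in DTP_TSA, -0.53 ± 0.05 in parental cells), ATG16L1 (101.2, 115 and 117 CPM in parental_TSA and 70.9, 61.7 and 60.3 CPM in DTP_TSA, -0.31 ± 0.06) and GLA (75.7, 67.9 and 58.8 CPM in parental_TSA and 48.7, 49.6 and 48.99 CPM in DTP_TSA, -0.30 ± 0.07) were also lower.

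CTSS fell furthest, with -1.85 ± 0.17 (adjusted p = 1.20e-07), from 2.03, 2.00 and 1.82 CPM in parental_DMSO to 0.550, 0.388 and 0.674 in parental_TSA, where it rests on few reads. CTSL was lower too (-0.25 ± 0.06). The 3 V-ATPase subunits rose together, ATP6V1H by 0.76 ± 0.08, ATP6V1A by 0.65 ± 0.06 and ATP6V0D1 by 0.56 ± 0.07. The remaining rises were CTSH (0.88 ± 0.09), MCOLN1 (0.72 ± 0.09), CTSD (0.52 ± 0.11), ATG9A (0.50 ± 0.06), UVRAG (0.43 ± 0.07), CTSA (0.40 ± 0.07), NPC1 (0.36 ± 0.08), CTSB (0.30 ± 0.05), GUSB (0.22 ± 0.08), LAMP2 (0.17 ± 0.05) and LAMP1 (0.15 ± 0.04). The GUSB call was lost without parental_DMSO a, parental_DMSO b or parental_TSA a (0.11 to 0.21), and at 0.12 without replicate a of both TSA groups. Without replicate a of both TSA groups the changes were 2.60 for TFEB, 1.65 for NEU1, 1.61 for WIPI1, 1.21 for GABARAPL1, 1.17 for ULK1, 0.94 for GABARAPL2, -0.71 for SQSTM1 and -1.84 for CTSS. CTSZ, HEXA and GAA did not pass, at 0.09 ± 0.07, -0.07 ± 0.05 and 0.08 ± 0.16.

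In DTP cells 21 of 34 members passed with TSA. Of these 14 were higher and 7 lower in DTP_TSA than in DTP, against 56.2% of all genes called (25.6% higher and 30.7% lower), and the median was 0.08 against -0.08. The groups did not overlap for 25 members (65.5% of all genes). Without replicate a of both TSA groups the counts were 16 and 10, and with spike-in scaling 9 and 3, against 24.6% and 14.3% of all genes. MCOLN1, with 20.2, 18.1 and 17.9 CPM in parental_TSA and 33.4, 34.8 and 37.3 CPM in DTP_TSA, rose most in DTP cells, by 1.22 ± 0.09 (adjusted p = 3.22e-09, and 1.25 without both replicates a). NEU1 rose by 1.19 ± 0.07 (adjusted p = 4.05e-10, and 1.24 without them). ATP6V1A, with 115, 131 and 135 CPM in parental_TSA and 197, 218 and 222 CPM in DTP_TSA, rose by 0.86 ± 0.06 (adjusted p = 3.56e-09, and 0.91 without them), and TFEB by 0.80 ± 0.14 (adjusted p = 1.48e-04, and 0.77 without them). None of these 4 overlapped between DTP and DTP_TSA.

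SQSTM1 fell most, with -1.05 ± 0.07 (adjusted p = 2.97e-09, and -1.09 without both replicates a). Also lower were GABARAPL1 at -0.77 ± 0.06 (adjusted p = 8.61e-09, and -0.78 without them), TFE3 at -0.71 ± 0.07 (adjusted p = 1.48e-07, and -0.80 without them) and BECN1 at -0.36 ± 0.05 (-0.40). The other members that rose were NPC1 (0.70 ± 0.08), MAP1LC3B (0.64 ± 0.08), GABARAPL2 (0.48 ± 0.11), ATP6V1H (0.46 ± 0.08), ULK1 (0.40 ± 0.13), ATG16L1 (0.36 ± 0.06), LAMP2 (0.35 ± 0.05), ATG9A (0.31 ± 0.06), ATP6V0D1 (0.28 ± 0.07) and UVRAG (0.18 ± 0.07). Of these, ULK1 was lost at 0.24 without both replicates a. It was also lost without DTP a or DTP_TSA a alone (0.24 to 0.35, adjusted p from 0.0711 to 0.125). UVRAG was lost without any 1 of 14 libraries (adjusted p from 0.0565 to 0.161). HEXA (-0.23 ± 0.05), CTSZ (-0.21 ± 0.07) and CTSA (-0.17 ± 0.07) were lower. CTSA was lost without any 1 of the 3 DTP libraries or DTP_TSA a (adjusted p from 0.0542 to 0.115) and turned to 0.02 with spike-in scaling, and CTSZ was lost without DTP_TSA a (-0.17). WIPI1 and OPTN, raised by TSA in parental cells, had -0.02 ± 0.06 and -0.02 ± 0.06 in DTP cells, and GAA had 0.00 ± 0.15, or -0.26 (adjusted p = 0.04) without both replicates a.

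The difference between the TSA effects was tested directly, as the effect in DTP minus that in parental cells. Of 34 members 17 had a lower and 6 a higher effect in DTP, against 38.3% of all genes called (15.3% higher and 23.0% lower), with a median of -0.26 against -0.11. Without both replicates a the counts were 20 and 8, and with spike-in scaling 8 and 2, against 9.02% lower and 6% higher of all genes. GABARAPL1 had the largest difference, -2.04 ± 0.08 (adjusted p = 5.72e-11), and was called higher in parental cells and lower in DTP. TFEB (-1.90 ± 0.21, adjusted p = 3.51e-06), WIPI1 (-1.60 ± 0.09, adjusted p = 1.47e-09) and OPTN (-1.20 ± 0.08, adjusted p = 2.34e-08) followed. These 4 genes were already higher in DTP than in parental cells before TSA, at 3.09 ± 0.06, 2.08 ± 0.16, 2.62 ± 0.07 and 2.26 ± 0.06. The DTP libraries enter both quantities with opposite sign, so no relation between them is read from this. CTSS (1.54 ± 0.23, adjusted p = 6.87e-05) and ATG16L1 (0.66 ± 0.09, adjusted p = 3.07e-05) had the largest differences in the other direction. The values of all 23 members stand among the results flagged for a closer look.

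**Figure D5:**
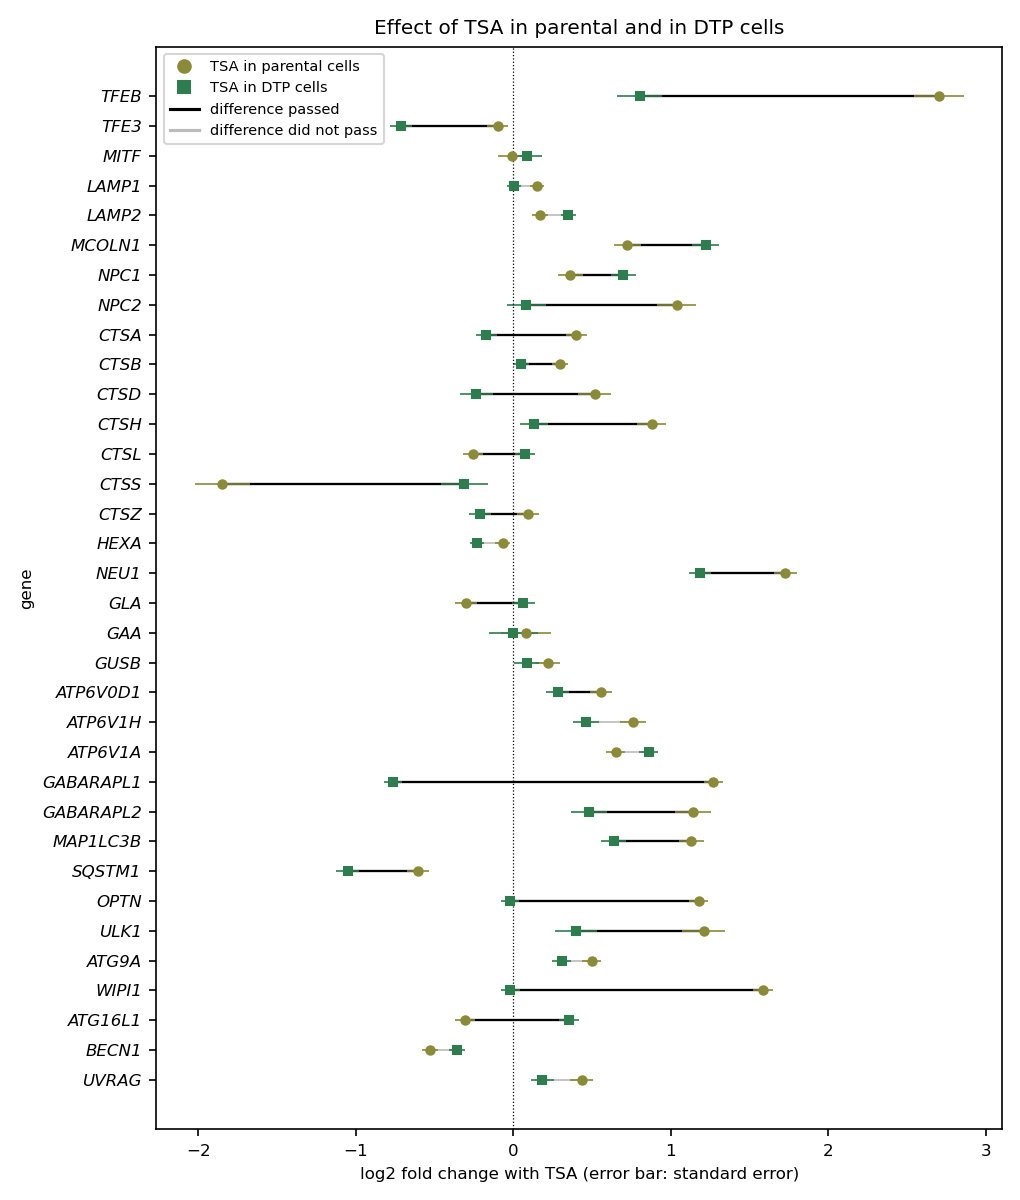
Log2 fold change with TSA (horizontal axis, with standard error) in parental cells (circles) and in DTP cells (squares) for the 34 members, joined by a black line where the difference passed and a grey line where it did not. GABARAPL1 lies right of 0 in parental cells and left of 0 in DTP cells, and WIPI1 and OPTN lie near 0 in DTP cells.

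Other genes of the same pathways, 146 tested in 5 lists, were counted to set the members beside their surroundings. DTP had 72 of them higher and 22 lower than parental cells (median 0.26), so that 64.4% were called against 58.9% of all genes. In erlotinib_24h 82 were higher and 33 lower (median 0.36), or 78.8% against 69.3%. After carboplatin 74 were higher and 43 lower (median 0.24), or 80.1% against 58.9%. TSA raised 85 and lowered 24 in parental cells (median 0.32), or 74.7% against 58.2%, and raised 62 and lowered 34 in DTP cells (median 0.14), or 65.8% against 56.2%. Other hydrolases and their activators were the list with the highest median in both erlotinib comparisons, with 26 of 34 higher and 4 lower in DTP (median 0.94) and 29 higher and 2 lower in erlotinib_24h (median 1.07). In carboplatin_72h 17 were higher and 9 lower (median 0.22). The shares called were 88.2%, 91.2% and 76.5%, against 58.9%, 69.3% and 58.9% of all genes. The carboxypeptidase SCPEP1 (1.48 ± 0.04), the nuclease DNASE2 (1.30 ± 0.05) and the protease CTSF (2.57 ± 0.09) rose in DTP, and after 24 hours of erlotinib their changes were 2.31, 2.03 and 3.33. The proteases CTSC (-1.79 ± 0.08) and LGMN (-0.65 ± 0.04) and the hydrolase GGH (-0.39 ± 0.09) were lower in DTP. After carboplatin CTSV (2.50 ± 0.08), the sphingomyelinase SMPD1 (1.95 ± 0.09) and the saposin precursor PSAP (1.03 ± 0.05) were higher, and the sulfatase ARSB (-3.21 ± 0.09), the lipase LIPA (-0.86 ± 0.05) and the mannosidase MANBA (-0.58 ± 0.06) lower. Between the 2 drugs, 28 of the 34 were higher in erlotinib_24h and 4 in carboplatin_72h, or 94.1% called against 67.3% of all genes.

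Of 24 other membrane proteins of the lysosome and of sorting to it, 13 were higher and 4 lower in DTP, 14 and 6 in erlotinib_24h, and 8 and 11 in carboplatin_72h. The shares called were 70.8%, 83.3% and 79.2%, against 58.9%, 69.3% and 58.9% of all genes. The sialic acid transporter SLC17A5 (1.38 ± 0.05), LITAF (0.89 ± 0.05) and the sorting receptor SORT1 (1.68 ± 0.11) rose in DTP, and the mannose 6-phosphate receptor M6PR (-0.32 ± 0.04) was lower. After carboplatin the channel TPCN2 (-1.60 ± 0.13) and the amino acid transporter SLC36A1 (-1.06 ± 0.10) were lower. Of 14 other V-ATPase subunits 7 were higher and 2 lower in DTP, 4 and 4 in erlotinib_24h, and 11 and 1 in carboplatin_72h, or 64.3%, 57.1% and 85.7% called, of which the share in erlotinib_24h was below that of all genes (69.3%). Alternative forms of subunit a moved apart after 24 hours of erlotinib, with ATP6V0A1 (1.53 ± 0.09) and TCIRG1 (1.77 ± 0.13) higher and ATP6V0A2 (-1.55 ± 0.07) lower.

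Of 44 other autophagy genes 19 were higher and 5 lower in DTP, 24 and 11 in erlotinib_24h, and 26 and 11 in carboplatin_72h. In DTP the 54.5% called were below the 58.9% of all genes, while 79.5% in erlotinib_24h and 84.1% in carboplatin_72h were above 69.3% and 58.9%. ZFYVE1, which marks the site where autophagosomes form, rose by 2.18 in DTP, 3.00 in erlotinib_24h and 2.88 in carboplatin_72h. The lysosomal membrane protein DRAM1 (2.43 ± 0.10) and the cargo receptor TAX1BP1 (0.93 ± 0.08) also rose in DTP, and the conjugating enzymes ATG3 (-0.57 ± 0.07) and ATG7 (-0.54 ± 0.10) and the protease ATG4C (-0.32 ± 0.08) were lower. In erlotinib_24h and carboplatin_72h the mitochondrial receptor BNIP3L rose by 1.14 and 1.14 and the ULK1 partner ATG13 by 1.01 and 0.94.

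Of 30 genes of mTORC1 and the nutrient control of TFEB, 7 were higher and 7 lower in DTP (median 0.01), 11 and 10 in erlotinib_24h (median 0.06), and 12 and 11 in carboplatin_72h (median -0.07). In DTP 46.7% were called against 58.9% of all genes, in erlotinib_24h 70.0% against 69.3% and in carboplatin_72h 76.7% against 58.9%, so the list was below or near the background in the erlotinib groups. YWHAZ, one of the 14-3-3 proteins that hold phosphorylated TFEB in the cytoplasm, was lower in DTP (-0.83), erlotinib_24h (-0.73) and carboplatin_72h (-0.69). The GTPase RRAGC (0.39 ± 0.08), the leucine sensor SESN2 (0.35 ± 0.08) and FNIP1 (0.40 ± 0.11) were higher in DTP, and PPP3CB (-0.60), a catalytic subunit of calcineurin, and PRKAA2 (-0.86), a catalytic subunit of AMPK, lower. SESN2 was the gene of this list with the smallest p among the higher ones after carboplatin, at 1.66, and the mTORC1 subunit RPTOR (-1.60 ± 0.14) was lower there. SESN3 rose with TSA, by 3.11 in parental and 3.52 in DTP cells, and after 24 hours of erlotinib it rose by 1.56.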

How the data were processed

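Polyadenylated RNA of 18 PC9 libraries in 6 groups was sequenced. The deposited values are expected counts per gene that the authors estimated with Salmon, per the submitters' processing notes. A genome build or annotation was not given in the sources used here. Of each table, 3 columns match no sample and were not used. Expected counts were rounded to whole numbers, 27814 of 30727 identifiers were matched to symbols, and reads of unmatched ones took 0.2243 to 0.2602% of gene reads. Spike-in rows were kept out of library sizes and tests.

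One quasi-likelihood model of edgeR 4.0.16 (R 4.3.3, limma 3.58.1), with a term per group and 12 residual degrees of freedom, was fitted to all 17641 genes left by filterByExpr, with TMM normalization. Adjusted p-values (Benjamini-Hochberg, 0.05) cover all genes of each of 8 comparisons. Standard errors are the absolute log2 change divided by the square root of the F statistic of this fit to all 18 libraries. CPM are expected reads scaled to the TMM-adjusted library size. Alternatives were DESeq2 1.42.0, its size factors, 2 filters, a replicate block, only the groups compared, spike-in scaling and leaving out libraries. Per-library levels are printed for TFEB, TFE3 and MITF and, in each comparison, for up to 4 members per direction with the largest absolute change among those that passed with at least 5 CPM in the higher group. Of each other list, up to 3 genes per direction and comparison that passed are named by the smallest p. The 34 members and all lists were chosen with earlier results of these data known.

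The labels do not say what the replicate letters mark. Deviations of same-lettered libraries from their group means correlated weakly, at 0.16, 0.192 and 0.11 in DTP against erlotinib_24h. In parental_TSA against parental_DMSO they correlated at 0.244, 0.202 and 0.00365, and in the other comparisons of 2 groups at -0.278 to 0.378. In counts simulated for DTP against parental_DMSO on 17641 genes, 33% of genes changed 1.5-fold and 89% of those changed 2-fold were recovered, and 4.69% of calls were false. The simulation changed 200 genes and gave every gene the same spread, where 58.9% of all genes were called in the data. Its rates therefore describe the simulated setting and not these data. Promoters come from RefSeq (GRCh38.p14). Figures were drawn with matplotlib 3.10.9.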

Additional observations from a re-analysis of the deposited data

Results flagged for a closer look

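The effect of TSA differed between DTP and parental cells for 23 of the 34 members, by the edgeR test of the difference itself adjusted over all genes. The difference was lower in DTP for 17 and higher for 6. Values are log2 changes, and "without a" leaves out replicate a of both TSA groups. Called in opposite directions in the 2 cell states were GABARAPL1 (1.27 in parental and -0.77 in DTP cells, difference -2.04, or -1.98 without a), CTSA (0.40 in parental and -0.17 in DTP cells, difference -0.57, or -0.45 without a) and ATG16L1 (-0.31 in parental and 0.36 in DTP cells, difference 0.66, or 0.52 without a). GABARAPL1 and CTSA rose with TSA in parental cells and fell in DTP, and ATG16L1 fell in parental cells and rose in DTP. The CTSA call in DTP was lost without DTP a, DTP b, DTP c or DTP_TSA a (adjusted p from 0.0542 to 0.115), and its sign turned with spike-in scaling without DTP_TSA a. The other members with a lower effect in DTP were, among autophagy genes and transcription factors, TFEB (2.70 in parental and 0.80 in DTP cells, difference -1.90, or -1.83 without a), WIPI1 (1.58 in parental and -0.02 in DTP cells, difference -1.60, or -1.64 without a), OPTN (1.18 in parental and -0.02 in DTP cells, difference -1.20, or -1.22 without a), ULK1 (1.21 in parental and 0.40 in DTP cells, difference -0.81, or -0.93 without a), GABARAPL2 (1.14 in parental and 0.48 in DTP cells, difference -0.66, or -0.40 without a), TFE3 (-0.10 in parental and -0.71 in DTP cells, difference -0.61, or -0.64 without a), MAP1LC3B (1.13 in parental and 0.64 in DTP cells, difference -0.49, or -0.32 without a) and SQSTM1 (-0.60 in parental and -1.05 in DTP cells, difference -0.45, or -0.38 without a). Among lysosomal proteins they were NPC2 (1.04 in parental and 0.08 in DTP cells, difference -0.95, or -0.64 without a), CTSD (0.52 in parental and -0.24 in DTP cells, difference -0.75, or -0.75 without a), CTSH (0.88 in parental and 0.13 in DTP cells, difference -0.75, or -0.75 without a), NEU1 (1.73 in parental and 1.19 in DTP cells, difference -0.54, or -0.41 without a), CTSZ (0.09 in parental and -0.21 in DTP cells, difference -0.30, or -0.17 without a), ATP6V0D1 (0.56 in parental and 0.28 in DTP cells, difference -0.27, or -0.13 without a) and CTSB (0.30 in parental and 0.05 in DTP cells, difference -0.25, or -0.18 without a). A higher effect in DTP was measured for CTSS (-1.85 in parental and -0.31 in DTP cells, difference 1.54, or 1.49 without a), MCOLN1 (0.72 in parental and 1.22 in DTP cells, difference 0.50, or 0.58 without a), GLA (-0.30 in parental and 0.06 in DTP cells, difference 0.36, or 0.45 without a), NPC1 (0.36 in parental and 0.70 in DTP cells, difference 0.34, or 0.23 without a) and CTSL (-0.25 in parental and 0.07 in DTP cells, difference 0.33, or 0.43 without a). Without replicate a of both TSA groups 22 of the 23 passed again, all but ATP6V0D1 (-0.13, adjusted p = 0.0763). The differences of GABARAPL2, MAP1LC3B and CTSZ, which passed, and of ATP6V0D1 were smaller there by more than 1.5 times. With spike-in scaling 10 passed. ATP6V0D1 also lost its call without any 1 of 8 libraries (parental_DMSO a or b, DTP a, b or c, erlotinib_24h a, parental_TSA a or DTP_TSA a), NPC1 without parental_DMSO b, DTP a, DTP c or DTP_TSA b, and CTSZ without parental_DMSO c. That of NPC1 was 0.21 without parental_TSA a. All 23 rest on the same DTP and parental libraries.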

How the results depend on the processing

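Scaling to spike-in RNA was the alternative that changed most. With all libraries in it, edgeR called 0 members in each of the 8 comparisons, where 4, 3, 7, 1, 0, 0, 3 and 0 had an unadjusted p under 0.05, in the order DTP, erlotinib_24h, carboplatin_72h and parental_TSA against parental_DMSO, DTP_TSA against DTP, DTP against erlotinib_24h, erlotinib_24h against carboplatin_72h and the difference of the TSA effects. Of the other pathway genes 1, 1, 0, 0, 0, 0, 0 and 0 were called (6, 4, 10, 3, 3, 1, 7 and 0 unadjusted), and of all genes 288, 419, 75, 26, 29, 90, 541 and 0. DTP_TSA a, with 99.9 spike-in reads per 100 gene reads, is in that fit. Without DTP_TSA a, 12 members were called in DTP_TSA against DTP and 10 in the difference of the TSA effects, with 16 other pathway genes and 2717 of all genes in the latter. A sign was counted as turned only where the value passed in the main fit or in the alternative. With DTP_TSA a no member passed under this scaling, so values not passed in the main fit could be counted only without it. By that rule signs turned for 37 member values with DTP_TSA a in the spike-in scaling and 40 without it. For erlotinib_24h against parental_DMSO these were TFE3 -0.016 or -0.0161, NPC1 -0.0866, GUSB -0.173, ATP6V0D1 -0.0893, MAP1LC3B -0.00147 or -0.00149 and BECN1 -0.216 with and without it. For carboplatin_72h against parental_DMSO these were CTSD 0.32, CTSL 0.349, HEXA 0.301 or 0.3, GUSB 0.158 and ATG16L1 0.22 with and without it, and MITF 0.473, LAMP1 0.625, NPC2 0.572 and ATP6V1H 0.53 without it. For DTP_TSA against DTP these were LAMP2 -0.0862, ATP6V0D1 -0.0947, ULK1 -0.189, ATG9A -0.102, ATG16L1 -0.155 and UVRAG -0.225 with it, and CTSA 0.0238 without it. For DTP against erlotinib_24h these were CTSB 0.124, HEXA 0.243, GUSB 0.0897 or 0.0898, GABARAPL2 0.17, ATG9A 0.0747, ATG16L1 0.23 and BECN1 0.184 with and without it, and LAMP1 0.425, LAMP2 0.435 and GABARAPL1 0.413 without it. For erlotinib_24h against carboplatin_72h these were LAMP1 -0.559, LAMP2 -0.618, NPC2 -0.0131 or -0.013, CTSL -0.78, GUSB -0.331, SQSTM1 -0.815, OPTN -0.852, ULK1 -0.611, ATG9A -0.545 and UVRAG -0.235 or -0.234 with and without it, and TFEB -0.877, CTSB -0.946, ATP6V0D1 -0.937 and GABARAPL1 -0.897 without it. For TSA effect in DTP minus TSA effect in parental these were NPC1 -0.127, CTSL -0.0327 and GLA -0.0472 with it. The scaling itself moves all genes together. Without replicate a of both TSA groups GAA turned to -0.257 in DTP_TSA against DTP, and the cause was not tested. By the same rule no sign turned under DESeq2 or its size factors in edgeR. None turned with no filter on low counts, a minimum of 1 CPM in at least 3 libraries or the replicate block. None turned with only the groups compared or with 1 library left out. Signs of values that passed in neither fit were not counted. No total of members called moved by more than 1.5 times under these alternatives. With only the groups compared, however, the members called lower went from 4 to 8 in DTP and from 5 to 8 in erlotinib_24h, and without replicate a of both TSA groups those in DTP also went from 4 to 8. With the replicate block 268 of 272 member results kept their call. The 4 that lost it were GUSB in erlotinib_24h (0.1885, adjusted p = 0.0523), UVRAG in DTP_TSA (0.1833, adjusted p = 0.0552), GABARAPL2 in DTP against erlotinib_24h (-0.2801, adjusted p = 0.0557) and ATP6V0D1 in the difference of the TSA effects (-0.2741, adjusted p = 0.058). Leaving out 1 library at a time, 21 of 272 member results lost their call without at least 1 library and 25 gained one. None of the calls in DTP against parental_DMSO was lost. The lowest member had 36.0 reads in a library.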
